A study of Mus musculus with 8 samples.

Results

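The 10 genes described here were measured in 8 RNA sequencing libraries of mouse bone marrow derived macrophages, out of 55421 gene identifiers in the table. They encode enzymes that release arachidonic acid from phospholipids or convert it to prostaglandins and leukotrienes, together with related phospholipases of the A2 class (PLA2): Pla2g2e, Pla2g4a, Pla2g7, Pla2g15, Alox5, Alox5ap, Ltc4s, Ptgs1, Ptgs2 and Ptges. The set was chosen by function around Pla2g2e, which was itself selected on its lower level in Baf60a KO in an earlier fit of the same values. The Pla2g2e difference is therefore given as a description with no test, and nothing is read from how many of the 10 genes moved. All 10 symbols matched 1 Ensembl identifier each.

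The libraries were labelled as WT (n = 4) or Baf60a KO (n = 4), with primary cells from C57 mice taken at day 7 of macrophage differentiation. Baf60a is the product of Smarcd1, a subunit of BAF chromatin remodelling complexes. The labels give neither the deleted part of the gene nor the age of the animals, and they do not say whether replicates were separate mice or cultures. A p-value here therefore sets the group difference only against the scatter of these libraries, which may be technical. Values are TPM, a level of transcripts per length that sums to 1000000 in each library, and the depth of each library is not in the table and is unknown here. Between 13727 and 14027 genes were above 1 TPM per library. WT replicates 3 and 4 stood apart from the other 6 libraries, with 12.0% and 12.25% of their TPM in processed pseudogenes against 6.78% to 8.38%. Smarcd1 was between 14.01 and 16.25 TPM in WT and between 9.91 and 10.85 TPM in KO. The macrophage markers were present in every library: Cd68 had 1472 ± 141 TPM in WT and 1791 ± 35.7 in KO (SD, n = 4 each), and Adgre1, which encodes F4/80, had 273 ± 21.9 and 308 ± 12.8 TPM. Other macrophage markers had lower means in KO: Lyz2 had 3993 TPM in WT and 1927 in KO, and Mrc1 79.3 and 71.8. Stromal RNA was abundant as well, with Col1a1 at 1534 TPM in WT and 1873 in KO, so the levels below are those of mixed RNA.

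Eicosanoids are lipid mediators made from arachidonic acid. Cytosolic PLA2 frees arachidonate from membranes. Cyclooxygenases then turn it into prostaglandin H, which terminal synthases convert to the single prostanoids, while 5-lipoxygenase and its activating protein FLAP start the route to the leukotrienes. Macrophages are a classical source of both kinds of mediator, and their prostaglandin output depends strongly on the inducible cyclooxygenase.

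The stretches of DNA in front of 3 of the genes are shown, since these genes mark the range seen in the data: Pla2g2e, the gene the set was built around, Ltc4s, the other member past the threshold, and Alox5, the member with the lowest level. Each is the 250 bases before the RefSeq start on build GRCm38.p6 (mm10), 5′ to 3′ in the direction of the gene, with matches to 7 searched motifs in capitals. For Ltc4s the RefSeq start lies inside the gene as placed by GENCODE M21 (50236461 to 50238616), so part of its window does too.
Pla2g2e, chr4:138877692-138877941, plus strand: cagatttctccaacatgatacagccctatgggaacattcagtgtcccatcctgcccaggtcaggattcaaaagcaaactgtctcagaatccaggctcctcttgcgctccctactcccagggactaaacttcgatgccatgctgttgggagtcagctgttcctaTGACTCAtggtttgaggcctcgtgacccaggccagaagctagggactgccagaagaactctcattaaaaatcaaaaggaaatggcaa
Ltc4s, chr11:50238533-50238782, minus strand: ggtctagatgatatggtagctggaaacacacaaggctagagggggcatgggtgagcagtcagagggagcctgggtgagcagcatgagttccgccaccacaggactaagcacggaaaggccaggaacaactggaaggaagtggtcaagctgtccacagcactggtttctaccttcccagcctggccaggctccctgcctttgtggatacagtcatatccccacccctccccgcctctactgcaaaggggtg
Alox5, chr6:116461179-116461428, minus strand: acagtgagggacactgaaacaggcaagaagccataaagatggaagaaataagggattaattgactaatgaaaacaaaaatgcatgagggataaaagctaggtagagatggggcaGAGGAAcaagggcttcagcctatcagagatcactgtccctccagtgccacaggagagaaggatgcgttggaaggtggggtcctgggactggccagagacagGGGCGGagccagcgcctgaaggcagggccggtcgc

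The motifs searched on both strands were a TATA box (TATAAA), a GC box (GGGCGG), the core of PU.1 sites (GAGGAA), an AP-1 site (TGANTCA), a cyclic AMP response element (TGACGTCA), an NF-kappaB site (GGGANTTCC) and an E-box (CACGTG). Windows of 9 of the 10 genes were in the RefSeq table; Alox5ap had none. The Pla2g2e window held 1 match, an AP-1 site from 87 to 81 bases before the start, a motif found in 6.75% of all 32851 windows of this length. The Alox5 window held a GC box from 35 to 30 bases before the start (32.7% of all windows) and a PU.1 core from 136 to 131 bases before it (23.3%). No motif of the 7 was matched in the Ltc4s window, which says only that these letters are not in it. The G and C content was 49.6% for Pla2g2e, 57.6% for Ltc4s and 52.8% for Alox5, against a median of 52.4% over all windows. Over the first listed start of the 9 genes, a GC box was in the windows of Pla2g7, Pla2g15, Alox5, Ptgs2 and Ptges, which held 2, and a PU.1 core in those of Alox5, Ptgs1, Ptgs2 and Ptges. Of all windows, 12.4% held the TATA box, 1.55% the cyclic AMP response element, 1.43% the NF-kappaB site and 6.02% the E-box, none of which was in a window of the 3 genes shown.

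The genes spanned a wide range of levels. Alox5ap, at 263 ± 24.8 TPM over the 8 libraries (SD), was the most abundant, followed by Pla2g15 at 122 ± 12.8, Pla2g7 at 68.3 ± 8.71, Ltc4s at 22.4 ± 4.27 and Pla2g4a at 19.3 ± 1.42 TPM. Ptges was at 8.32 ± 1.15, Pla2g2e at 6.38 ± 2.36, Ptgs2 at 5.98 ± 1.09, Ptgs1 at 3.78 ± 0.617 and Alox5 at 0.525 ± 0.176 TPM. Neighbours in this order were compared within libraries by an exact two-sided sign-flip permutation test on log2(TPM + 1), with Benjamini-Hochberg adjustment over the 9 pairs. The order held in 8 of 8 libraries for 6 pairs, each at adjusted p = 0.0117, from an exact p of 0.00781, the smallest that 8 libraries allow. It was not resolved for Ltc4s over Pla2g4a (5 of 8 libraries, exact test, adjusted p = 0.167), where Ltc4s was higher in 1 of 4 WT libraries and in 4 of 4 KO libraries. The place of Pla2g2e depends on the KO values that chose it, so its pairs are described without a test. Ptges was above Pla2g2e in 6 of 8 libraries, and Pla2g2e was above Ptgs2 in all 4 WT libraries and below it in all 4 KO libraries. Summed over the 10 genes, TPM was 528 ± 49.5 in WT and 512 ± 14.2 in KO, and Alox5ap alone held between 47.1% and 53.2% of that sum.

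**Figure D1:**
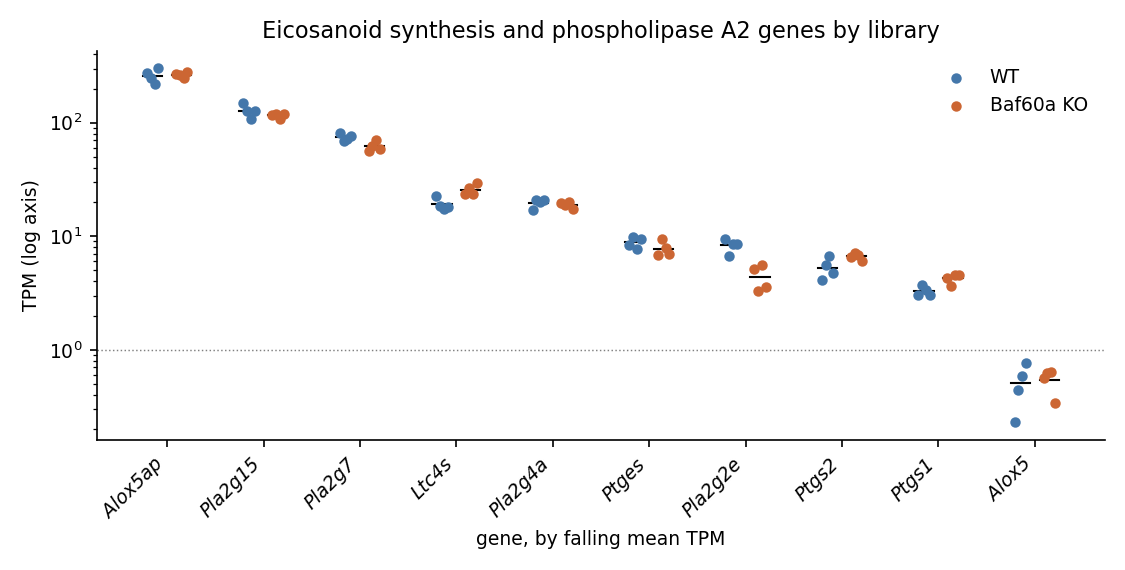
TPM (log axis) of the 10 genes in 4 WT (blue) and 4 Baf60a KO (orange) libraries, ordered by mean level; points are libraries, black lines group means, and the dotted line is 1 TPM. The points of the groups are fully apart for Pla2g2e and Ltc4s, and every library has Alox5 under 1 TPM.

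For the comparison of Baf60a KO with WT, limma was fitted to log2(TPM + 1) over the 13933 genes that exceeded 1 TPM in 4 or more libraries. That filter kept 9 of the 10 genes, each of them over 1 TPM in all 8 libraries, and left out Alox5. The threshold for a call was an adjusted p of 0.05, and fold changes are KO minus WT on the log2(TPM + 1) scale, which understates the change of low genes. Of the 9 genes, Pla2g2e lay past the threshold on the lower side, by the choice of the set, and of the other 8 genes 0 were called lower and 1, Ltc4s, higher. Over all genes tested, 1.21% were called lower and 4.40% higher. Ltc4s also had all KO libraries above all WT libraries, as had 11.9% of all genes tested, and Pla2g2e all KO libraries below them (3.96% of all genes). Nothing is read from these counts, since the comparison chose the set. The median log2 fold change of the 9 was -0.05, and that of all genes tested 0.03.

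**Figure D2:**
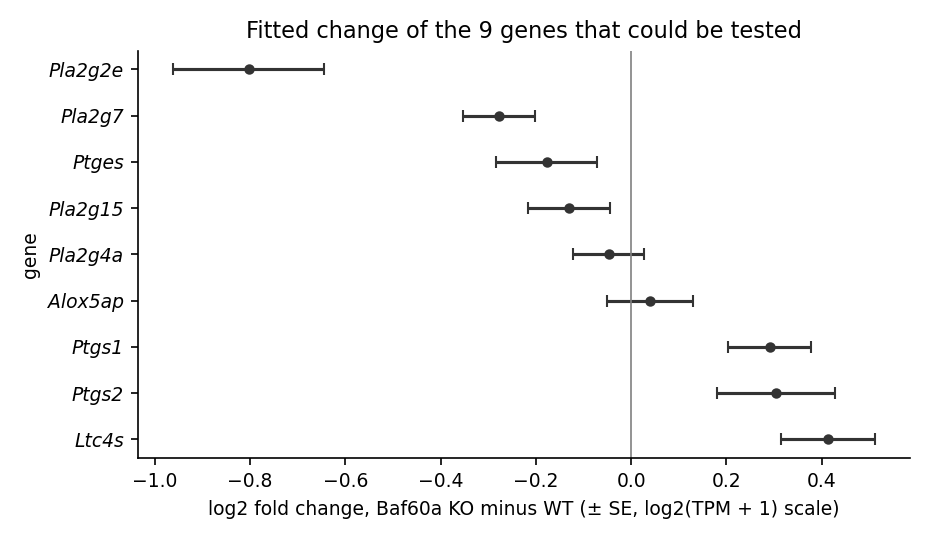
Fitted log2 fold change, Baf60a KO minus WT on the log2(TPM + 1) scale, of the 9 genes tested; points are estimates and bars 1 SE from 4 libraries per group. Pla2g2e lies lowest at -0.80 and Ltc4s highest at 0.41; the Pla2g2e value chose the set and is shown as a description.

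Among the phospholipases, Pla2g2e (ENSMUSG00000028751, chromosome 4, 138877942 to 138882817, plus strand, mm10) encodes a small secreted PLA2 of group II. The WT libraries held 9.52, 6.72, 8.63 and 8.51 TPM in the order of their replicate numbers, the KO libraries 5.18, 3.30, 5.59 and 3.58. Every KO library was lower than every WT library, and the closest were WT replicate 2 and KO replicate 3. The mean was 8.35 ± 1.17 TPM in WT and 4.41 ± 1.14 TPM in KO (SD, n = 4 each), a ratio of 0.529 (log2 fold change -0.80, SE 0.16). Leaving out single libraries moved the log2 fold change between -0.91 and -0.70, and 5 of these 8 fits left it outside the threshold used here. These fits use the values that chose the gene and are a description. In bulk RNA, fewer cells that express a gene and less of its RNA per cell cannot be told apart. On the lower side, Pla2g7, at a log2 fold change of -0.28, was the gene of the set nearest to the threshold from outside.

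Pla2g2e lies in a cluster of 6 secreted PLA2 genes on chromosome 4, and its levels can be set beside those of its neighbours. Pla2g5, on the other strand with its start 14.5 kb from that of Pla2g2e, had 2.19, 2.19, 3.37 and 2.63 TPM in WT and 1.82, 1.75, 2.15 and 1.40 TPM in KO. Its KO libraries were again all lower than its WT libraries, but the difference was not called (log2 fold change -0.36, SE 0.13, limma adjusted p = 0.141). Pla2g2a, Pla2g2c and Pla2g2f were listed at 0 in all 8 libraries, and Pla2g2d was at 0.06 TPM or less. The ratio of Pla2g2e to Pla2g5 was 3.30 ± 0.753 in WT and 2.47 ± 0.411 in KO, with overlapping ranges. None of the 51-base stretches of the Pla2g2e or Pla2g5 transcripts, the length of a read, occurred in transcripts of another gene. Outside the cluster, Pla2g12a was the most abundant gene of the secreted PLA2 list, which does not hold Pla2g7, at 22.3 ± 2.27 TPM in WT and 20.97 ± 1.70 in KO (by limma, adjusted p = 0.633), and Pla2g1b, Pla2g10 and Pla2g12b were listed at 0 throughout.

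**Figure D3:**
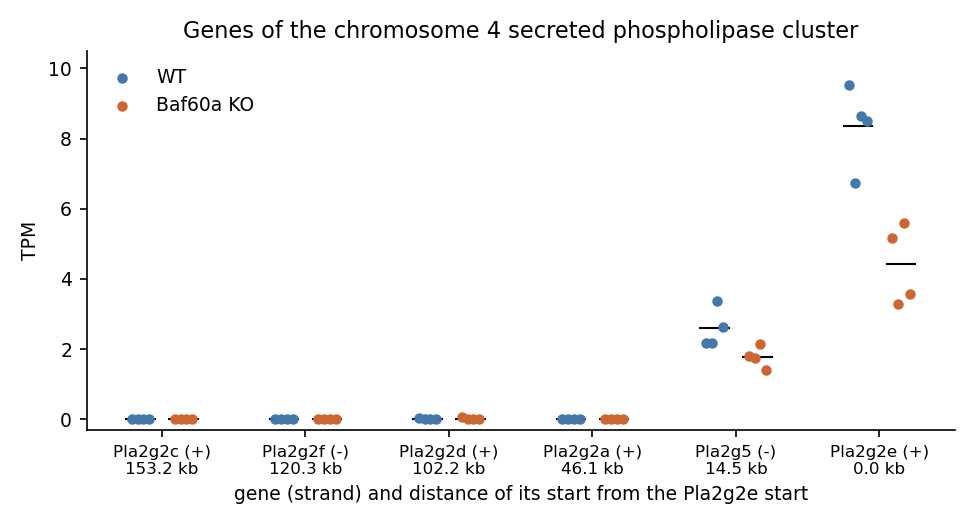
TPM of the 6 genes of the chromosome 4 secreted phospholipase cluster in WT (blue) and Baf60a KO (orange), with strand and distance of each start from the Pla2g2e start; points are libraries and lines group means. Pla2g2e and Pla2g5 are the genes with points clearly above 0, and in both the KO points lie under the WT points.

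The 4 genes with an official symbol whose pattern over the 8 libraries was most like that of Pla2g2e were taken by Pearson's r of log2(TPM + 1) among 12026 such genes tested. They were the histone gene Hist1h2ap (r = 0.955), the scavenger receptor gene Stab1 (r = 0.935), Rragd, which encodes a Rag GTPase (r = 0.935), and Enpp2, which encodes the lysophospholipase D autotaxin (r = 0.934). All 8 points share the contrast that chose Pla2g2e, so these values are a description. After group means were taken out, r ranged from 0.69 for Stab1 to 0.816 for Rragd. The choice by r over the same 8 libraries favours high values here too, so they are also only a description. Enpp2 had 2.26 ± 0.286 TPM in WT and 1.47 ± 0.219 in KO.

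Pla2g4a (chromosome 1, 149829618 to 149961290, minus strand), the cytosolic PLA2 that supplies arachidonate to both cyclooxygenase and lipoxygenase, had 17.01, 20.73, 20.13 and 20.71 TPM in WT and 19.58, 18.70, 20.0 and 17.50 in KO. The groups overlapped, with a log2 fold change of -0.05 (SE 0.074, limma adjusted p = 0.776). Pla2g7 (chromosome 17, 43568098 to 43612201, plus strand), a secreted hydrolase of platelet activating factor, had 80.82, 69.74, 72.5 and 76.54 TPM in WT and 56.05, 62.02, 70.4 and 58.67 in KO. KO replicate 3 reached into the WT range, and the change was not called (log2 fold change -0.28, SE 0.076, adjusted p = 0.0711). With TPM rescaled over protein-coding genes it was called (log2 fold change -0.30, limma adjusted p = 0.0211). Pla2g15, the lysosomal phospholipase, was the most abundant PLA2 of the set, between 108.87 and 147.87 TPM in WT and between 106.91 and 120.38 in KO (log2 fold change -0.13, limma adjusted p = 0.421). Its highest value, in WT replicate 1, and its lowest, in KO replicate 3, lay in different groups, with the other libraries mixed between them.

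In the cyclooxygenase branch, Ptgs1, which encodes the constitutive cyclooxygenase 1 (chromosome 2, 36230426 to 36252272, plus strand), had 3.06, 3.74, 3.36 and 3.03 TPM in WT and 4.27, 3.68, 4.54 and 4.54 in KO. Only KO replicate 2 lay within the WT range. Ptgs2, which encodes the inducible cyclooxygenase 2 (chromosome 1, 150100031 to 150108227, plus strand), had 4.10, 5.55, 6.73 and 4.74 TPM in WT and 6.63, 7.09, 6.88 and 6.08 in KO. WT replicate 3 lay among the KO libraries. Neither change was called, with log2 fold changes of 0.29 (SE 0.087, limma adjusted p = 0.0915) for Ptgs1 and 0.30 (SE 0.12, adjusted p = 0.189) for Ptgs2. Ptgs2 exceeded Ptgs1 in every library, and the ratio of their TPM was 1.60 ± 0.286 in WT and 1.58 ± 0.247 in KO. Ptges, the inducible microsomal synthase of prostaglandin E (chromosome 2, 30889471 to 30929863, minus strand), had 8.37, 9.79, 7.80 and 9.55 TPM in WT and 6.82, 9.37, 7.82 and 7.03 in KO. Its groups overlapped (log2 fold change -0.18, SE 0.11, adjusted p = 0.375).

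Of the other 7 genes listed as prostanoid synthases, 5 were tested and 0 were called, with 0 at an unadjusted p under 0.05. Among all genes tested, 1.21% were called lower and 4.40% higher by limma. At an unadjusted p under 0.05, 6.42% were lower and 15.9% higher. These shares also stand behind the counts of the other function lists below. Ptges3, a cochaperone that also acts as a cytosolic prostaglandin E synthase, had 81.1 ± 3.14 TPM in WT and 81.3 ± 3.40 in KO. Hpgds, the haematopoietic prostaglandin D synthase, was at 78.2 ± 7.57 and 84.3 ± 4.27 TPM, and Cbr1, a carbonyl reductase that can act on prostaglandin E, at 65.5 ± 4.21 and 64.4 ± 3.40. Their adjusted p by limma ran from 0.411 to 0.981. Hpgds exceeded Ptges by 7.89 to 13.1 times over the 8 libraries. Ptgis, the prostacyclin synthase, was too low for the filter and is named after its values were seen. It had 0.34, 0.14, 0.27 and 0.24 TPM in WT and 0.83, 0.84, 1.18 and 1.09 in KO, a ratio of mean TPM of 3.98 with no overlap. In the fit with no filter on low values it was called higher (log2 fold change 0.67, SE 0.079, limma adjusted p = 0.0142).

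Prostacyclin synthase is best known from vascular and stromal cells, and markers of such cells also differed between the groups. The summed TPM of 10 stromal and smooth muscle markers ran from 5633 to 6127 in WT and from 6852 to 7170 in KO, with Col1a1, Col1a2 and Acta2 as the most abundant and none of the 10 at 0. Of these 10, 5 rose and 0 fell, where 4.40% of all genes tested were called higher and 1.21% lower, shares that also stand behind the marker counts that follow. The list was not uniform. Mean Dcn was lower in KO, at 3.96 ± 0.61 TPM against 5.92 ± 2.36 in WT, with overlapping groups and no call. Cxcl12 (232.4 TPM in WT, 232.3 in KO) and Pdgfra (11.2 and 11.8 TPM) were nearly level. For 5 endothelial markers the sum was 22.2 to 28.9 in WT and 32.6 to 41.7 in KO, and 2 of the 4 tested, Pecam1 and Emcn, rose. The part of these cells in the Ptgis difference, and in those of Ptgs1 and Ptgs2, was not tested. Of the other lists, 10 macrophage markers summed to 5957 to 6921 TPM in WT and 4615 to 4933 in KO, where Cd68, Itgam and C1qa rose and Lyz2, the lysozyme gene, fell. Lyz2 carried the lower sum: without it the other 9 summed to 2164 to 2612 TPM in WT and 2805 to 2882 in KO. Of 8 dendritic cell markers Itgax rose, with sums of 35.8 to 44.0 TPM in WT and 45.7 to 48.3 in KO. Most of that sum was Itgax and H2-Ab1 RNA, and 5 of the 8 were under 1 TPM in every library. H2-Ab1 and Zbtb46 were not called, and mean Zbtb46 was lower in KO, at 1.79 TPM against 2.04 in WT. The 8 neutrophil markers, most of them S100a8 and S100a9 RNA, summed to 172.3 to 258.3 TPM in WT and 135.1 to 219.6 in KO, and the 8 lymphocyte markers to under 1 TPM in every library.

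In the leukotriene branch, Alox5ap and Alox5 stood far apart. Alox5ap (chromosome 5, 149264767 to 149288153, plus strand), which encodes FLAP, had 271.8, 247.83, 219.02 and 300.78 TPM in WT and 270.78, 263.59, 247.31 and 280.76 in KO. The KO values all lay inside the WT range, with a log2 fold change of 0.04 (SE 0.091, limma adjusted p = 0.858). Alox5 (chromosome 6, 116410077 to 116461178, minus strand), which encodes 5-lipoxygenase itself, had 0.23, 0.44, 0.59 and 0.77 TPM in WT and 0.57, 0.62, 0.64 and 0.34 in KO. It was under 1 TPM in all 8 libraries, its groups overlapped, and it was not tested with the filter. Without the filter its log2 fold change was 0.04 (limma adjusted p = 0.899). Alox5ap was between 371 and 1180 times Alox5 in TPM. The other lipoxygenases were low as well: Alox12, Alox15, Alox8 and Aloxe3 were each at 0.54 TPM or less in every library, and Alox12b and Alox12e were listed at 0.

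Ltc4s (chromosome 11, 50236461 to 50238616, minus strand), the synthase that joins glutathione to leukotriene A to make leukotriene C, had 22.75, 18.33, 17.33 and 18.08 TPM in WT and 23.8, 26.43, 23.48 and 29.27 in KO. Each KO library was above each WT library, though WT replicate 1 came within 1 TPM of the lowest KO library. The mean rose from 19.1 ± 2.46 TPM in WT to 25.8 ± 2.70 in KO (log2 fold change 0.41, SE 0.099, limma adjusted p = 0.047). The call ended in 7 of 8 fits with 1 library left out (adjusted p up to 0.122, without KO replicate 4), with WT replicates 3 and 4 left out (log2 fold change 0.32, adjusted p = 0.147) and after quantile normalization (0.0573) or scaling by median ratios (0.0504). It also ended with no filter on low values (0.0989) and without the mean-variance trend (0.0593). The direction held in all 19 alternatives, with log2 fold changes from 0.32 to 0.50. The ratio of Alox5ap to Ltc4s was 11.9 to 16.6 in WT and 9.59 to 11.4 in KO, without overlap.

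Ltc4s is also known from mast cells, eosinophils and platelets, so their markers are set beside it. The summed TPM of 8 mast cell and basophil markers was 4.48 to 6.32 in WT and 3.34 to 4.25 in KO. Of these 8, 5 were under 1 TPM in every library, and of the 2 tested 0 were called, with 0 at an unadjusted p under 0.05 by limma. All 6 eosinophil markers were under 1 TPM in every library, with Il5ra listed at 0. The platelet list ran from 1406 to 2166 TPM in WT and from 1007 to 1402 in KO, and it was carried by Pf4, which macrophages also express. The part of these cells in the Ltc4s difference was not tested. A further limit is the annotation: 15.03% of the 51-base stretches of the Ltc4s transcripts also lie in Gm26542, a gene on the other strand with a mean of 0.302 TPM. For Pla2g7, Alox5ap and Ptgs1, 2.60% to 6.79% of such stretches lie in genes on the other strand at 0.402 TPM or less, and for the other 6 genes 0% do. Whether the counting used strand is not given in the sources used here; if it did not, reads of these genes and of their partners cannot be told apart there.

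**Figure D4:**
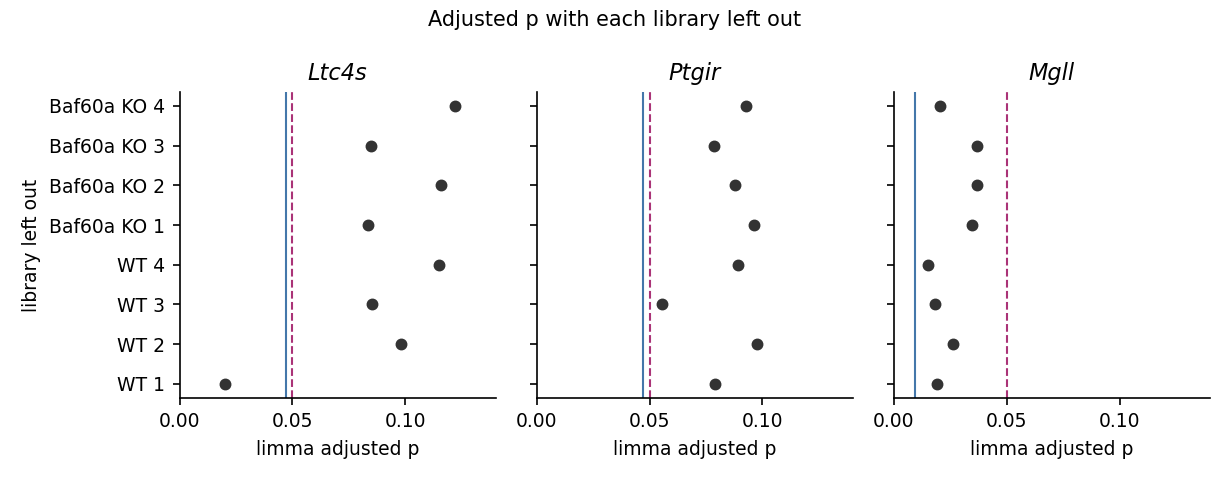
Limma adjusted p of Ltc4s, Ptgir and Mgll with each library left out (points); the blue line is the value with all 8 libraries and the dashed line 0.05. Ltc4s keeps its call in 1 of 8 fits, Ptgir in 0 and Mgll in 8.

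Downstream in leukotriene synthesis, Lta4h, the hydrolase that makes leukotriene B, had 91.6 ± 9.98 TPM in WT and 85.5 ± 2.53 in KO (by limma, adjusted p = 0.514). Dpep2, a dipeptidase that trims leukotriene D, was at 46.6 ± 2.86 and 46.5 ± 1.69 TPM (adjusted p = 0.99). Mgst3, a microsomal enzyme related to Ltc4s, had 37.69, 33.06, 33.25 and 27.16 TPM in WT and 41.63, 36.45, 43.65 and 43.95 in KO. KO replicate 2 lay within the WT range, and the change was not called (log2 fold change 0.33, SE 0.099, limma adjusted p = 0.0893). In the fit without WT replicate 1 it was called (adjusted p = 0.0486), and likewise with TPM rescaled over protein-coding genes (adjusted p = 0.0376). Of the 13 listed genes of this branch other than the members, 6 were tested and 0 called, with 1 at an unadjusted p under 0.05, which was Mgst3.

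Over all 7 function lists, 76 genes of the pathway were listed beside the 10, and 44 of them passed the filter. By limma, 2 fell, 0 rose and 42 did not pass; at an unadjusted p under 0.05, 4 were lower and 12 higher. Among all genes tested, 1.21% were called lower and 4.40% higher, and 6.42% were lower and 15.9% higher at an unadjusted p under 0.05. The median log2 fold change of the 44 was 0.05, beside 0.03 for all genes tested. KO libraries were all below the WT libraries for 5 of the 44 and all above them for 8, against 3.96% and 11.9% of all genes tested.

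**Figure D5:**
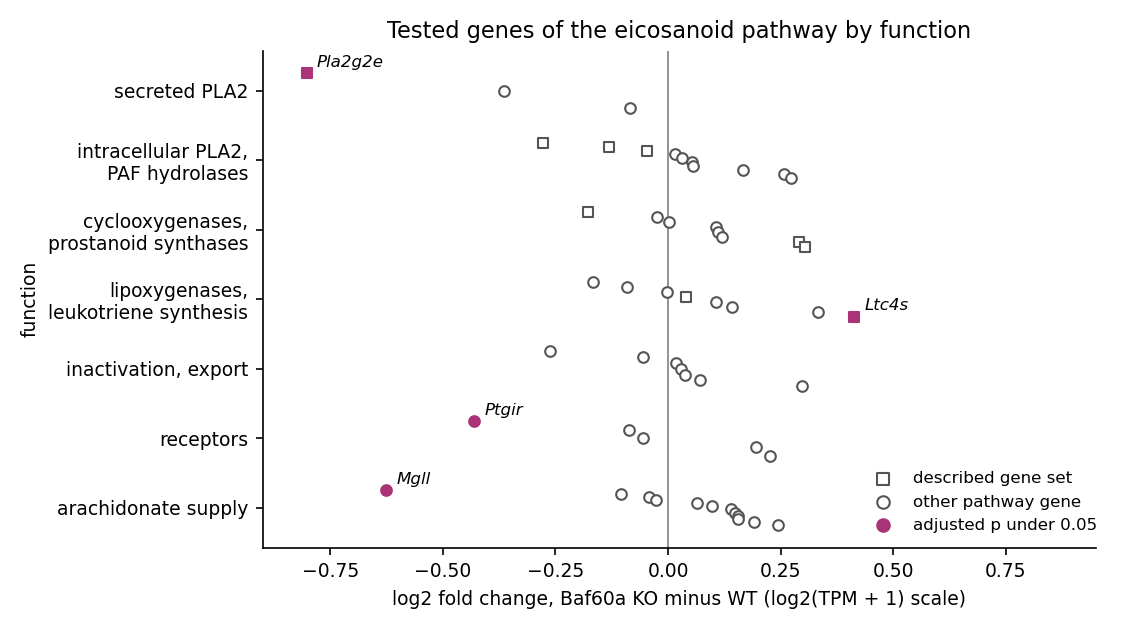
Log2 fold change, Baf60a KO minus WT on the log2(TPM + 1) scale, of the tested genes of 7 function lists; squares are the genes described throughout, circles other pathway genes, and filled symbols have limma adjusted p under 0.05. Filled symbols are Pla2g2e, Ptgir and Mgll on the left and Ltc4s on the right; the Pla2g2e value chose the set.

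Ptgir, the Gs-coupled receptor for prostacyclin, was the receptor that fell. Its TPM was 21.22, 23.15, 18.84 and 19.52 in WT and 15.73, 16.27, 12.16 and 16.40 in KO, with no overlap. On the log2 scale Ptgir fell by 0.43 (SE 0.10, limma adjusted p = 0.0469). The call ended in each of the 8 fits with 1 library left out (adjusted p from 0.0556 to 0.0977, the latter without WT replicate 2), while the log2 fold change stayed between -0.47 and -0.34. With WT replicates 3 and 4 left out it was -0.53 (adjusted p = 0.064), and the call also ended with no filter (0.0993), without the mean-variance trend (0.0583) and with array weights (0.057). Of 14 receptors, 5 were tested and the other 4 did not pass. Ptafr, the receptor of platelet activating factor and the most abundant, had 55.3 ± 2.92 TPM in WT and 52.0 ± 1.98 in KO. Ptger2 and Ptger4, the Gs-coupled receptors of prostaglandin E, were at 4.27 ± 0.356 and 4.06 ± 0.147 TPM, and at 2.81 ± 0.183 and 3.37 ± 0.126 TPM, with adjusted p = 0.721 and 0.14. Ptger4 was above 2.99 TPM in all KO libraries and at or under it in all WT libraries.

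Mgll, the lipase that frees arachidonate from the endocannabinoid 2-arachidonoylglycerol, was the other pathway gene that fell. It had 20.86, 21.33, 18.18 and 17.08 TPM in WT and 11.37, 11.34, 12.24 and 13.72 in KO, with a wide gap between the groups. The means were 19.4 ± 2.06 TPM in WT against 12.2 ± 1.12 (log2 fold change -0.63, SE 0.088, limma adjusted p = 0.00933). Its call held in 8 of 8 fits with 1 library left out and with WT replicates 3 and 4 left out (log2 fold change -0.75, adjusted p = 0.0137). In the supply of arachidonate 11 further genes were tested and did not pass. The desaturase Fads1 was at 34.7 ± 1.73 and 38.7 ± 1.15 TPM (adjusted p = 0.0994) and the elongase Elovl5 at 25.2 ± 1.97 and 28.0 ± 0.923 (adjusted p = 0.191), both with all KO libraries above all WT libraries. Mboat7, an acyltransferase that puts arachidonate into phosphatidylinositol, was at 27.7 ± 1.63 and 29.6 ± 1.19 TPM (adjusted p = 0.335).

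Among enzymes that act on platelet activating factor, Pafah1b3 had 34.2 ± 2.51 TPM in WT and 41.1 ± 2.70 in KO (limma adjusted p = 0.0598), with no overlap. It was not called with all libraries, but was called without WT replicate 3 (adjusted p = 0.043) and with array weights (0.0446). Pafah2, named after its values were seen, had 8.14 ± 0.419 TPM in WT and 10.1 ± 0.958 in KO, also with no overlap. Its change was not called (limma adjusted p = 0.0666), but was with TPM rescaled over protein-coding genes (adjusted p = 0.0449). The partner subunits of Pafah1b3, Pafah1b2 and Pafah1b1, were at 74.0 ± 7.36 and 76.8 ± 5.66 TPM, and at 61.8 ± 6.74 and 62.5 ± 7.48 TPM, with overlapping groups. Of 8 genes of inactivation and export, 7 were tested and 0 called, with 1 lower and 1 higher at an unadjusted p under 0.05. The exporter Abcc1, which carries leukotriene C out of cells, was at 64.6 ± 4.15 and 65.8 ± 2.11 TPM. The prostaglandin reductases Ptgr1 and Ptgr2 were at 41.5 ± 1.51 and 39.8 ± 0.365 TPM, and at 38.1 ± 1.86 and 39.1 ± 1.61 TPM, with adjusted p = 0.464 and 0.732.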

How the data were processed

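RNA was sequenced from 8 libraries of bone marrow derived macrophages at day 7, 4 WT and 4 Baf60a KO, grouped by the genotype in the labels. The authors deposited TPM per Ensembl gene with 2 decimals. The submitters' processing notes name Salmon 1.2.0, bcl2fastq and the build mm10. For Salmon's options and transcript annotation, the answer is not given in the sources used here. Of 55421 identifiers, 55154 matched GENCODE M21, which gave symbols and positions. TPM summed to 1000000 in each library within 1.03.

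Genes that exceeded 1 TPM in 4 or more libraries were tested on log2(TPM + 1) with limma 3.58.1 (R 4.3.3, empirical Bayes with a mean-variance trend, 2-sided), KO against WT without covariates, with Benjamini-Hochberg adjustment over all 13933 genes and a threshold of 0.05. The script was tested on simulated data. The text names the 10 genes, every called gene of 7 function lists and up to 3 of the most abundant uncalled genes per list, besides the 4 genes most like Pla2g2e. Ptgis and Pafah2 were named after their values were seen. The 10 genes, the function lists and 9 marker lists were chosen with earlier results of these data known. Alternatives varied the pseudocount, filter, variance model, replicate block, scaling, library weights and libraries. Promoter windows are from RefSeq (GRCm38.p6).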

Additional observations from a re-analysis of the deposited data

Results flagged for a closer look

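Of 64 groups of 4 libraries examined, 4 held a library whose distance to its nearest neighbour exceeded Dixon's critical share of the group's range, and chance gives about 1 in 20 groups. Pla2g4a was low in WT replicate 1, at 17.01 TPM. Ptgir was low in KO replicate 3, at 12.16 TPM, and without that library its log2 fold change was -0.34 (-0.336, limma adjusted p = 0.0786) in place of -0.43. Abcc1 was high in WT replicate 2, at 70.77 TPM. Elovl5 was high in KO replicate 3, at 29.36 TPM.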

How the results depend on the processing

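Over 19 alternatives, 8 of which leave out 1 library, 160 of 190 fold changes of 10 tested genes (8 of the set, Ptgir and Mgll) kept their direction and their side of the threshold, 27 lost the call, 1 gained it and 2 reversed. Pla2g2e, which has no test, stayed lower in all 19 but lay outside the threshold in 5 fits with 1 library left out, with no filter and with WT replicates 3 and 4 left out. The reversals were Pla2g4a, at 0.01 with both WT replicates 3 and 4 left out, and Alox5ap, at -0.04 (-0.039) without WT replicate 3, with a range from -0.039 to 0.113 over the libraries left out. The 782 genes called became 364 with no filter on low values, 209 with the replicate block, 1329 with TPM rescaled over protein-coding genes, 372 with WT replicates 3 and 4 left out, and 156 to 679 with 1 library left out. Genes of the set past the threshold on the lower side (1, Pla2g2e, which chose the set) are described without a test. They numbered 0 with no filter and with WT replicates 3 and 4 left out. Their number was 2 with the protein-coding rescaling and 0 to 1 with 1 library left out. Those called higher (1) numbered 0 with no filter, no mean-variance trend, the replicate block, median-of-ratios scaling, quantile normalization and WT replicates 3 and 4 left out, and 0 to 1 with 1 library left out. Pathway genes called lower (2) numbered 1 with no filter, no mean-variance trend, array weights, WT replicates 3 and 4 left out and each single library left out, and 0 with the replicate block. With the protein-coding rescaling they numbered 3. Pathway genes called higher (0) numbered 1 with no filter or array weights, 2 with the protein-coding rescaling, and 0 to 1 with 1 library left out. The order of levels was resolved for 6 pairs, but for 0 in the WT libraries alone, where 4 libraries cannot give an exact p below 0.125. Fits with fewer libraries have fewer degrees of freedom, and the cause of the other changes was not tested.

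Higher against lower calls were 613 and 169, and became 516 and 404 under median-of-ratios scaling, 440 and 254 under quantile normalization, 845 and 484 under protein-coding rescaling, and 201 and 171 with WT replicates 3 and 4 left out. No scaling moved the median of all genes by more than 0.034 (log2). Same-numbered WT and KO libraries did not deviate together (r = -0.113, 0.012, 0.008 and -0.016). These values show no pairing by number, but 4 libraries per group cannot exclude one. With the replicate block, adjusted p by limma was 0.111 for Ltc4s, 0.0575 for Ptgir and 0.0598 for Mgll. TPM keeps no depth, so counting error is not given, including for the low genes Alox5 and Ptgis.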
